A study of Homo sapiens with 12 samples.

Results

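Retained-intron transcripts are annotated products of a gene in which intron sequence is left between or beside exons, and they were followed here in HK-2 cells, an immortalised human proximal tubule epithelial line, kept for 72 h with 2,8-dihydroxyadenine (DHA) crystals in suspension. DHA is the poorly soluble purine that builds up and forms kidney stones when adenine phosphoribosyltransferase is lacking. The groups compared were cells in medium alone (control), and cells in medium with DHA at 60, 120 or 240 µg/ml, with 3 libraries each and 12 in all. No carrier control is described in the sources used here, nor whether libraries of the same dose are separate cultures; a p-value here weighs a difference only against how far such libraries scatter, and that scatter may be technical. Of 28008 table rows whose GENCODE release 29 type is retained_intron, 9130 had a value of at least 1 in 3 or more of the 12 libraries, and these are the transcripts described. They belong to 4427 genes and are 9130 of 61128 rows of any type that reached this minimum, out of 267165 rows in the table. The value is a normalised signal per transcript, of the kind that a depth- and length-scaled abundance divided by a library size factor gives, although no source used here names its unit. A transcript's share is its value as a percent of the summed values of all matched transcripts of its gene in the same library.

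An intron is removed by the spliceosome after its 5′ end (the donor site, usually opening with GT) and its 3′ end (the acceptor site, usually closing with AG) have been recognised. Transcripts that keep an intron are often held in the nucleus as detained introns, or carry an early stop codon and are degraded by nonsense-mediated decay once exported. Genes for splicing factors of the serine/arginine-rich (SR) family and for the CLK kinases that phosphorylate them are textbook cases of this kind of regulation. The libraries were made from poly(A)-selected RNA, which favours finished transcripts, and a value for a short annotated transcript is an estimate made from reads that it partly shares with the coding transcripts of its gene.

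The sequences below show what the transcripts described later keep, read from the GENCODE release 29 transcript sequences on GRCh38, 5′ to 3′ on the strand of the gene. The first is the whole intron of GET3 kept by ASNA1-203 (ASNA1 is the older symbol of GET3), in which capitals mark the first 6 and the last 2 intron bases. The second is the whole intron of ZDHHC5 kept by ZDHHC5-207, in which capitals mark the U12-type donor motif of 8 bases and the closing AG.
ASNA1-203, chr19:12745526-12745608, plus strand: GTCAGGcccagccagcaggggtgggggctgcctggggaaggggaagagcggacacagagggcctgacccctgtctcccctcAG
ZDHHC5-207, chr11:57690204-57690334, plus strand: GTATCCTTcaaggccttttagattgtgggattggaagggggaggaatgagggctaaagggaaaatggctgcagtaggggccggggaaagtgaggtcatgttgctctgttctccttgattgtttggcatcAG

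Transcripts of another kind run through a donor site that the coding transcripts use; RPL4-212 also begins inside another intron. In these windows of 30 bases the capitals mark the donor site, 3 exon and 6 intron bases.
SRSF3-206, chr6:36596966-36596995, plus strand: AAGGTGATTtaatgattacgctgataaaaa
RPL11-205, chr1:23695906-23695935, plus strand: AAGGTAAAGctgatttatctcaagtgaagt
RPL4-212, chr15:66501761-66501790, minus strand: AAGGTCCGTtcaatgagcacatttacagtt
RPL35A-209, chr3:197951309-197951338, plus strand: GAAGTAAGTttatgacactggtaggttttg
PTTG1-207, chr5:160422891-160422920, plus strand: AAGGTAAGTgttggctataaagacactgtt
WASHC3-210, chr12:102025947-102025976, minus strand: TGAGTAAGTaattcttctaatataatgata

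A further kind begins inside an intron and runs over an acceptor site into the exon. Here the window holds the last 27 intron bases and the first 3 exon bases, and capitals mark the AG at the end of the intron.
EIF4A2-225, chr3:186787776-186787805, plus strand: tttttaaaacatgccattgtgtttcAGgct
SPOCK1-210, chr5:136979467-136979496, minus strand: ttaaagttgcaccttttgttcccccAGggg
TLK2-215, chr17:62606103-62606132, plus strand: ataatttatatttcttttttgtcccAGgta
RPL26-202, chr17:8379934-8379963, minus strand: atttgttacttttgaatttgctcttAGgtt
SPARC-202, chr5:151667598-151667627, minus strand: ctgaccgcccttgtgtttggaacctAGaca
SLC7A6-212, chr16:68294678-68294707, plus strand: ctgctgacacatttctcatccttctAGgtt
LBR-206, chr1:225404524-225404553, minus strand: taaaaatgtacttttatttttatatAGatt

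As a class, retained-intron transcripts took a larger share of the library at the 2 upper doses. Their summed signal was 4.20, 4.09 and 4.19% of the library total in the 3 control libraries and 4.24, 4.17 and 4.70% at 60 µg/ml. It was 5.08, 5.07 and 4.83% at 120 µg/ml and 4.94, 5.90 and 5.18% at 240 µg/ml. Every library at 120 and 240 µg/ml lay above every control library, while the 60 µg/ml libraries overlapped the controls. The mean rose from 4.16 ± 0.06% (SD, n = 3) to 5.34 ± 0.50% at 240 µg/ml, a difference of 1.18 percentage points (two-sided exact permutation p = 0.1, the smallest that 3 against 3 can give). The control libraries against all 9 DHA libraries differed by 0.74 percentage points (exact permutation p = 0.0455). By the same exact permutation test this call is lost when rows without an annotated gene leave the total (p = 0.0591), when ribosomal protein genes are left out (p = 0.0773), when any 1 control library is left out (p = 0.109 to 0.145), or when any of 6 of the 9 DHA libraries is (p up to 0.0667). With every retained_intron row counted, also those under the minimum, the difference was 0.84 points (exact permutation p = 0.0364). Leaving out the library labelled 240 µg/ml replicate 2, the highest, gives a difference of 0.90 points at that dose.

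Other classes of non-coding transcript, summed over all genes, moved in the same direction. Nonsense-mediated decay transcripts went from 1.75 ± 0.03% to 2.23 ± 0.11% and processed transcripts from 2.87 ± 0.07% to 3.73 ± 0.27% between control and 240 µg/ml, in both cases with no overlap between the groups. Protein-coding transcripts went from 80.4 ± 0.13% to 77.4 ± 1.46%. The median gene with a member and a mean value of at least 1 had 9.87 ± 0.32% of its signal in retained-intron transcripts in control and 11.4 ± 0.67% at 240 µg/ml (exact permutation p = 0.1). Library totals fell with dose, from 1191204 ± 43365 in control to 885911 ± 89303 at 240 µg/ml. The part of the total taken by ribosomal protein genes was 16.0 ± 1.5% in control and 9.40 ± 1.71% at 240 µg/ml, and mitochondrial transcripts held 12.1 to 20.5% across the libraries. Against nuclear protein-coding genes alone, the retained-intron share was 5.44 ± 0.19% in control and 6.69 ± 0.60% at 240 µg/ml.

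**Figure D1:**
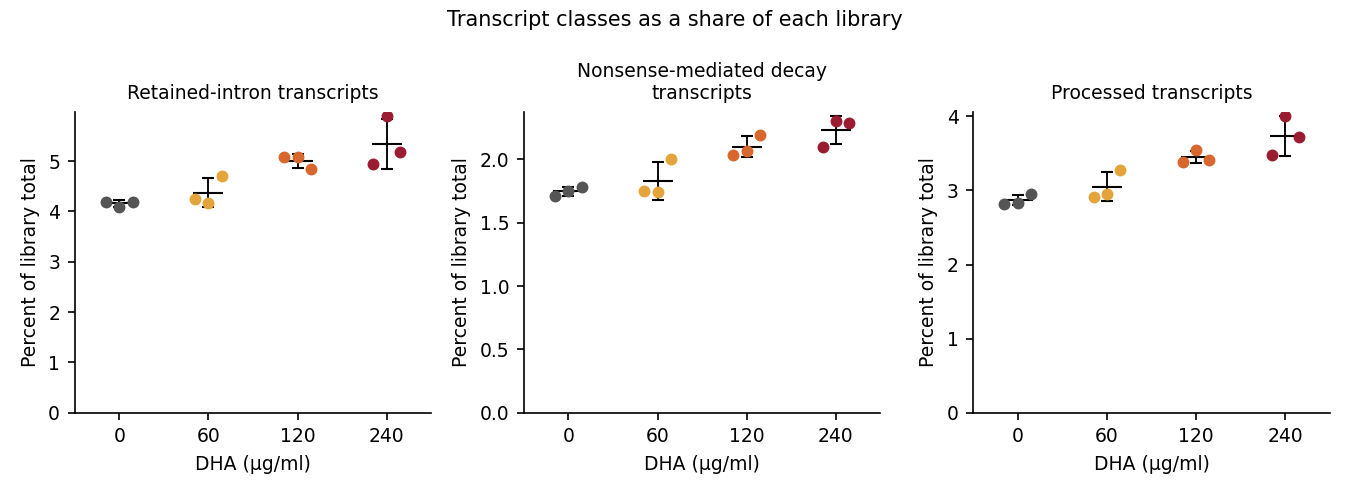
Percent of each library's total signal (y) held by 3 transcript classes, by DHA dose (x, µg/ml). Points are libraries, bars the mean ± SD (n = 3), and all 3 classes are higher at 120 and 240 µg/ml than in every control library.

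Most members were minor products. The median member had a mean value of 1.68 over the 12 libraries and a mean share of 4.38%, 6940 of the 9130 had a mean share under 10%, and 151 one above 50%. The median share was 3.89% in control, 4.08% at 60, 4.54% at 120 and 4.56% at 240 µg/ml. The share was higher than in control for 5081 members (55.7%) at 60, 6063 (66.4%) at 120 and 6025 (66.0%) at 240 µg/ml. The same count of the percent share over all transcripts is not given here, and a count on the log2 ratio follows below. The median difference at 240 µg/ml was 0.41 percentage points, and its upper quartile was 1.64 points.

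Tested one by one, 506 members rose in their share at 240 µg/ml and 77 fell, of 9068 that could be tested. There were 243 that rose and 28 that fell at 120 µg/ml, and at 60 µg/ml none rose and 1 fell. The test was limma on log2 of the ratio of the transcript to the rest of its gene, with 1 added to each, at a Benjamini-Hochberg adjusted p under 0.05 over 49154 transcripts. Over all those transcripts 3.5% were called higher and 2.28% lower at 240 µg/ml, 1.42% and 0.738% at 120 µg/ml, and 0% and 0.00407% at 60 µg/ml, against 5.58% and 0.85% of the members at 240 µg/ml. The median log2 ratio of the members changed by 0.14 at 240 µg/ml, against 0.04 over all transcripts and -0.02 over protein-coding ones. It changed by 0.12 over processed transcripts, of which 317 of 6822 rose and 93 fell. Over nonsense-mediated decay transcripts it changed by 0.08, and 133 of 3868 rose and 53 fell. This ratio was above control in 62.7% of the members, 53.3% of all transcripts, 59.7% of processed and 57.3% of nonsense-mediated decay ones. The shift was thus not particular to retained-intron transcripts.

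The number of calls depends strongly on how the share is scaled. Adding 1 to both terms makes the ratio of a low transcript rise when the whole gene falls. Of the 506 members that rose, 404 lay in genes whose summed level fell, as did 2306 of all 9130 members. Without an added value, among the 7309 members above 0 in all libraries, 281 rose and 27 fell at 240 µg/ml, against 2.13% and 1.6% of all 39644 transcripts so tested. Of those 281, 202 lay in genes that fell, which held 1862 of the 7309. How many calls the added value makes was not tested. On log2 of the percent share + 1 the counts were 89 and 18, against 0.763% and 0.686% of all transcripts. On that scale 0 and 2 members were called at 120 µg/ml, against 0.0305% of all transcripts in each direction, and 1 and 2 at 60 µg/ml, against 0.0122% in each. With nothing added, 88 and 4 were called at 120 µg/ml, against 0.55% and 0.255%, and none at 60 µg/ml. The percent share itself went the same way as the call in 501 of the 506 and in all 77. Single libraries weighed heavily: without 240 µg/ml replicate 2, 146 rose and 24 fell, and without replicate 3 of that dose 216 and 36. Without control replicate 1, 2 or 3 the counts were 191 and 29, 168 and 33, and 333 and 42. Leaving out 240 µg/ml replicate 1 gave 456 and 49. Leaving out a library left 10 to 140 that rose and 2 to 11 that fell at 120 µg/ml.

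Members called in share were chosen because transcript and gene parted, so the counts by share call given here only describe those calls. Over all members the median log2 change at 240 µg/ml was 0.18 for the transcript and 0.03 for its gene. Among the 506, the transcript's own level rose in 192 and fell in 13 by the same kind of test, with a median log2 change of 0.48, while the median change of their genes was -0.82. Among the 77 whose share fell, 31 fell in their own level and 3 rose, and 41 were in genes that rose, as were 2654 of all 9130 members. Over all 9130 members, 969 levels rose and 314 fell at 240 µg/ml, where 5956 and 6505 of all 61128 transcripts did (9.74% and 10.6%). At 120 µg/ml 655 rose and 201 fell (6.76% and 8.13% of all), and at 60 µg/ml 84 and 50 (1.68% and 1.75%). At 120 and 240 µg/ml the part of members that rose lay near that over all transcripts, and the part that fell lay below it. Scaling the libraries to equal totals moves the median of all transcripts at 240 µg/ml from 0.04 to 0.32 (log2), and then 2428 members rose and 140 fell. How many of all transcripts were called with equal totals is not given here, so nothing about the members is read from those counts. The member median was 0.18 on the deposited scale and 0.43 with equal totals.

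**Figure D2:**
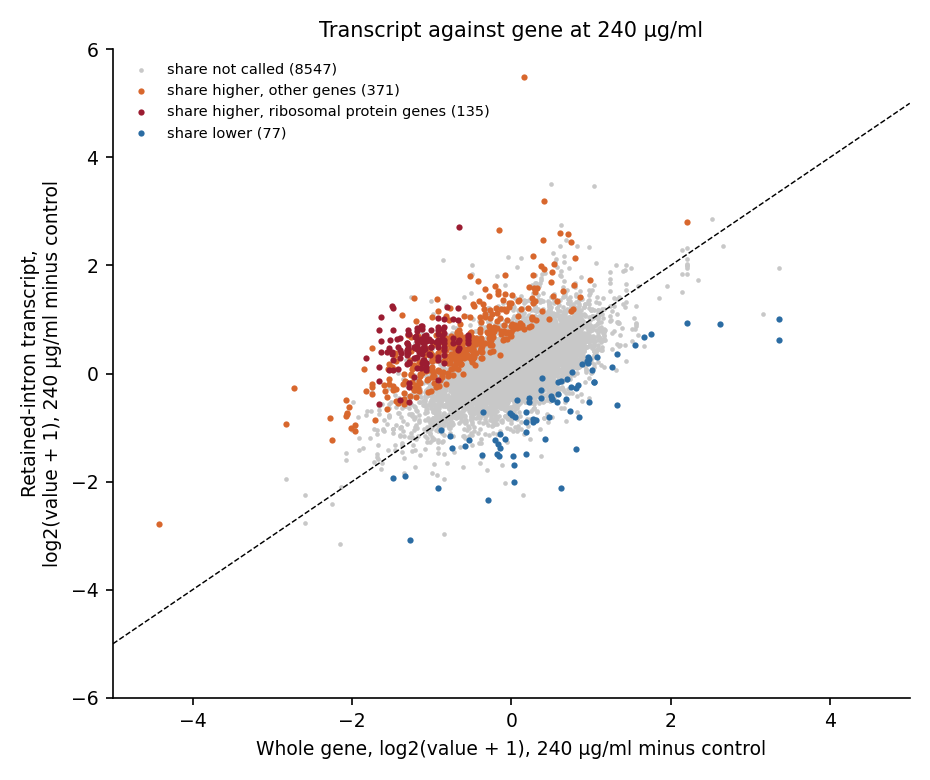
Change of each member's own level (y) against the change of its whole gene (x), both log2(value + 1), 240 µg/ml minus control. Each point is a transcript; the dashed line marks equal change, and the 135 ribosomal protein members whose share rose sit at genes below 0.

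Ribosomal protein genes, which encode the structural proteins of the ribosome, held a large part of these calls. They were singled out after the values were seen. They had 190 members, of which 135 rose in share at 240 µg/ml and 1 fell, and 103 rose at 120 µg/ml, while none was called at 60 µg/ml. The summed level of 81 of 83 ribosomal protein genes tested fell at 240 µg/ml, with a median log2 change of -1.14, and 1 rose. Without an added value 97 of 174 such members rose and none fell. Their shares stayed small: the median was 0.15% in control and 0.46% at 240 µg/ml, and the members together held 3.90 ± 0.09% of ribosomal protein signal in control and 5.18 ± 0.65% at 240 µg/ml. The members' own median log2 level change was 0.39, but their summed signal went from 7463 ± 786 in control to 4266 ± 683 at 240 µg/ml. Outside these genes, 371 members rose and 76 fell at 240 µg/ml, of 8878 tested (4.18% and 0.86%). At 120 µg/ml 140 rose and 28 fell (1.58% and 0.32%). Over all transcripts, ribosomal protein ones included, 3.5% rose and 2.28% fell at 240 µg/ml, and 1.42% and 0.738% at 120 µg/ml. The rises outside these genes thus lay near the general rate. Ribosomal protein genes have many processed pseudogenes, so their split between transcripts is uncertain.

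RPL35A-209, which runs past a donor of the gene for a large-subunit protein, had shares of 0.15, 0.13 and 0.15% in control. They were 0.77, 0.61 and 0.57% at 60, 1.35, 1.64 and 0.73% at 120, and 0.76, 2.00 and 0.91% at 240 µg/ml. Every DHA library was above every control library, and the log2 ratio rose by 2.72 ± 0.36 (SE, limma adjusted p = 0.00493) at 240 µg/ml. RPL26-202 went from 0.06 ± 0.02% to 0.48 ± 0.23% (adjusted p = 0.00577), again with all 9 DHA libraries above the controls. RPL4-212, which keeps the donor printed above, had 0.69 to 0.87% in control, 2.92 to 4.69% at 120 and 2.70 to 3.53% at 240 µg/ml (adjusted p = 0.0106). Its own level rose as well, from 15.5 to 24.5 in the controls to 29.5 to 48.8 at 240 µg/ml. RPL8-204 had 0.08, 0.14 and 0.30% in control and 1.16, 4.28 and 1.52% at 240 µg/ml (adjusted p = 0.00904), and its 60 µg/ml libraries overlapped the controls while those at 120 µg/ml did not.

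Among other genes the largest rise was that of EIF4A2-225, from the gene for a helicase that opens mRNA for translation initiation. Its value was 0 in all 3 controls, 0, 2.6 and 24.4 at 60, 13.1, 10.5 and 36.5 at 120, and 41.8, 44.8 and 44.5 at 240 µg/ml. The shares at 240 µg/ml were 12.5, 12.9 and 12.7%, and the log2 ratio rose by 5.52 ± 0.89 (adjusted p = 0.00778); the size of that value depends on the 1 that was added. EIF4A2-225 met the minimum through DHA libraries alone, so a rise was the only direction open to it and the call supports nothing. The gene as a whole changed by 0.16 on the log2 scale. The annotated transcript is 460 bases long and 5.87% of it lies outside coding exons, so most reads that could be counted for it also match coding transcripts.

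SPOCK1-210, from a gene for a matrix proteoglycan, had 12.7, 0.14 and 0% in control and 16.6, 21.7 and 25.1% at 240 µg/ml (adjusted p = 0.0374). TLK2-215, from the gene for a kinase of chromatin assembly, had 14.7, 0 and 7.65% in control and 38.8, 39.4 and 33.1% at 240 µg/ml (adjusted p = 0.0297). ASNA1-203, which keeps the GET3 intron printed above, had 0, 0 and 4.42% in control, 3.83 to 7.31% at 120 and 10.2, 13.2 and 9.0% at 240 µg/ml (adjusted p = 0.0158). In these 3 transcripts the 240 µg/ml libraries all lie above the controls, and at least 1 control library is at 0. GET3 is the ATPase that delivers tail-anchored proteins to membranes.

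The 10 largest rises at 240 µg/ml also held transcripts of NDUFA4, PTTG1 and PTRHD1. NDUFA4-205, of a subunit of the respiratory chain, went from 2.91 ± 2.52% to 13.0 ± 3.26% (adjusted p = 0.0411). PTTG1-207, of securin, went from 0.40 ± 0.69% to 3.84 ± 1.59% (adjusted p = 0.023). PTRHD1-202 went from 3.66 ± 3.19% to 27.2 ± 14.5% (adjusted p = 0.0308), and its gene fell by 1.37 on the log2 scale. At 120 µg/ml DNMT1-207, of the maintenance DNA methyltransferase, rose from 0.26 ± 0.07% to 9.44% (adjusted p = 0.0413). It was at 5.23% at 240 µg/ml, where 1 of 3 libraries had 1.05% and the test gave an adjusted p of 0.138. SUPT4H1-206 and YWHAE-205 rose at 120 µg/ml (adjusted p = 0.0427 and 0.0476) and not at 240 µg/ml.

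**Figure D3:**
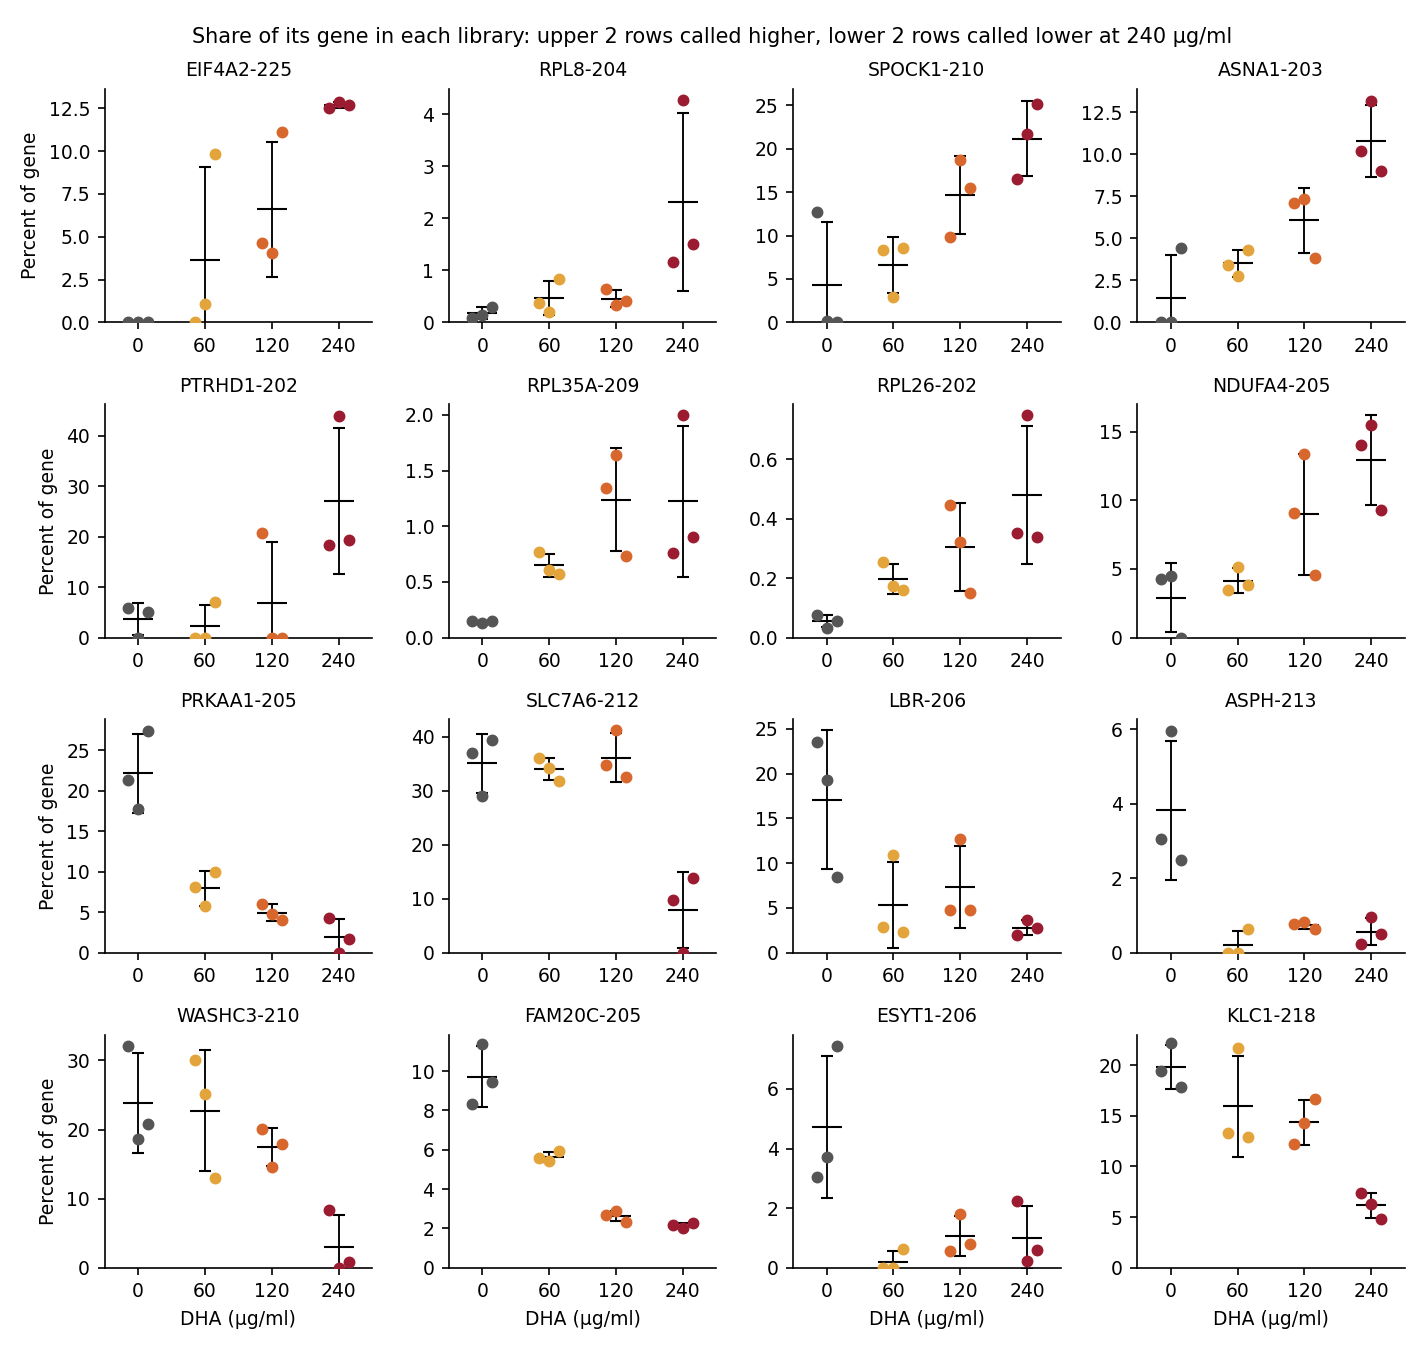
Share of its gene (y, percent, own scale per panel) in each library for 16 members, by DHA dose (x, µg/ml). Points are libraries and bars the mean ± SD (n = 3); EIF4A2-225 is at 0 in all controls and PRKAA1-205 is highest there.

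The falls had fewer members and larger starting shares: the 77 had a median share of 12% in control and 3.76% at 240 µg/ml. PRKAA1-205, from the gene for a catalytic subunit of the energy sensor AMPK, had 21.3, 17.8 and 27.4% in control and 8.10, 5.74 and 9.94% at 60 µg/ml. It had 6.02, 4.80 and 4.01% at 120 and 4.30, 0 and 1.64% at 240 µg/ml. All DHA libraries lay below all controls, and the log2 ratio fell by 3.05 ± 0.36 at 240 µg/ml (adjusted p = 0.00352). No base of this annotated transcript lies outside coding exons, so its share is set by reads that coding transcripts also explain.

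SLC7A6-212, from the gene for an amino acid exchanger, changed at the top dose: its shares were 28.9 to 39.3% in control, 31.9 to 36.1% at 60 and 32.5 to 41.1% at 120 µg/ml. At 240 µg/ml they were 9.84, 0 and 13.8% (adjusted p = 0.0154). KLC1-218, of a kinesin light chain, had 17.8 to 22.2% in control and 4.82 to 7.33% at 240 µg/ml (adjusted p = 0.00588). Its libraries at 60 µg/ml overlapped the controls, and those at 120 µg/ml lay between, at 12.2 to 16.6%. FAM20C-205, of the kinase that phosphorylates secreted proteins, had 9.71 ± 1.56% in control, 5.63% at 60, 2.64% at 120 and 2.15 ± 0.12% at 240 µg/ml (adjusted p = 0.000928), while its gene rose by 1.32 on the log2 scale. In FAM20C-205 every DHA library lay below every control.

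LBR-206, of the lamin B receptor, went from 17.1 ± 7.76% to 2.79 ± 0.83% (adjusted p = 0.0318), and WASHC3-210, of a WASH complex subunit, from 23.9 ± 7.20% to 3.08 ± 4.60% (adjusted p = 0.0132). The other 4 of the 10 largest falls at 240 µg/ml were ASPH-213, ESYT1-206, MYBBP1A-205 and GOLGA8B-203, with mean control shares between 3.83 and 22.5%. GOLGA8B belongs to a family of near-identical copies, so its share is uncertain. At 120 µg/ml SIGIRR-210 fell from 52.6 ± 3.95% to 32.9% (adjusted p = 0.0325) and was at 30.1 ± 2.59% at 240 µg/ml (adjusted p = 0.0117). CLPTM1L-204 fell from 34.4 ± 3.94% to 16.1% at 120 (adjusted p = 0.0325) and was at 18.3 ± 3.81% at 240 µg/ml (adjusted p = 0.0379). CCND1-205, of cyclin D1, was called lower at 120 µg/ml (adjusted p = 0.0226), but its share was 0 in 2 of 3 controls and 6.82% in the third, and its gene rose at 240 µg/ml by 3.36 on the log2 scale.

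The fall called at 60 µg/ml was that of COQ6-206, named after its values were seen because it was the only one. This transcript of a coenzyme Q monooxygenase gene had values of 2.0, 1.7 and 2.0 in control, or 10.6, 8.99 and 10.1% of its gene, and was listed at 0 in all 9 DHA libraries. It met the minimum of 1 in 3 libraries through the control libraries alone, so a fall was the only direction open to it and the call supports nothing. The call at 60 µg/ml is also lost with only the 2 groups fitted, and without any 1 control library or 60 µg/ml replicate 1 or 2 (limma adjusted p = 0.053 to 0.112 with 1 of those libraries left out).

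How firm the calls on single members are varied. At 240 µg/ml EIF4A2-225, KLC1-218, SIGIRR-210, PRKAA1-205 and FAM20C-205 kept their call under each alternative that gave a value, with any 1 library left out among them. EIF4A2-225 had no signal in any control library, so only a rise was open to it and keeping the call adds no support. The ribosomal transcripts RPL35A-209, RPL26-202, RPL8-204 and RPL4-212 kept it with any 1 library left out and lost it on the scale of the percent share. SPOCK1-210, TLK2-215, ASNA1-203, NDUFA4-205, PTTG1-207, PTRHD1-202, LBR-206, WASHC3-210, SLC7A6-212, CLPTM1L-204, MYBBP1A-205, ESYT1-206 and GOLGA8B-203 each lost it when some 1 library was left out. So did ZDHHC5-207 and UBL5-205, described further on.

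The way a transcript keeps intron sequence was read from the annotation by comparing its exons with the introns of its gene's coding transcripts. A whole intron was kept by 2922 members, 2879 start in an intron before an acceptor, 2101 run past a donor, 847 do both at separate sites, and 210 hold no unused splice site. The remaining 171 lie in genes without a coding transcript. At 240 µg/ml, 217 members that keep a whole intron rose and 19 fell (7.44% and 0.65% of those tested). Of those that start before an acceptor 142 rose and 31 fell (4.96% and 1.08%), and of those that run past a donor 102 rose and 18 fell (4.88% and 0.86%). Among the 171 none was called. Whether the kinds differ from each other was not tested.

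How much of a transcript is intronic also varied with the calls. The median member had 32.9% of its bases outside every coding exon of its gene. Of 2396 members with over 50% outside, 202 rose and 15 fell at 240 µg/ml (8.47% and 0.63%), and their share was above control in 71.7%. Of 1083 with at most 10% outside, 36 rose and 25 fell (3.35% and 2.32%), and the share was above control in 60.4%. Transcripts with little intron of their own had calls in both directions near the rates over all transcripts (3.5% and 2.28%), and several of the largest changes above (EIF4A2-225, PRKAA1-205, SLC7A6-212, KLC1-218) are of that kind. Ribosomal protein members, not split off in these rates, had a median of 47.2% outside, against 32.6% in other genes. The median control share was 2.87% with over 50% outside and 7.08% with at most 10% outside. What part either plays in the rates was not tested.

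Kept introns, as annotated, were short. An intron counts as kept only if it fits inside 1 exon of an annotated member, and members that keep one had a median length of 1179.5 bases. Long introns could seldom count, so the lengths here describe the annotation and were not measured in these libraries. Of 3496 distinct introns kept whole, 2781 lie outside every coding exon, and those had a median length of 217 bases against 592 bases for 19183 other such introns of the same genes. Up to 300 bases long were 62.6% of the kept and 35.5% of the other introns. Their ends were GT-AG in 3394 of the 3496, GC-AG in 55 and AT-AC in 11, and their median GC content was 57.3%. Among unused donors inside members, 96.1% of 7392 had GT, and among unused acceptors 98.8% of 8504 had AG. The donors of kept introns matched CAGGTAAGT at a median of 6 of 9 positions, whether the member rose, fell or was not called at 240 µg/ml. The median length of introns kept by members that rose was 268.5 bases, against 212 bases for members not called. By length, 6.28% of introns up to 100 bases and 11.1% of those over 500 bases belonged to members that rose.

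A small set of introns is spliced by the minor, U12-dependent spliceosome, which recognises a different donor. The letters GTATCCTT or ATATCCTT, searched on the gene's strand at the first intron base, opened 24 of the 3496 kept introns (0.686%), in 25 members. The mean share at 240 µg/ml was above control in 21 of the 25, 3 rose by the test and none fell. Over all members that keep a whole intron the share was above control in 70.3% and 7.44% rose, and nothing particular to the 25 is read from their counts. The 3 were named after their values were seen: ZDHHC5-207, RPL4-214 and UBL5-205. ZDHHC5 encodes a protein palmitoyltransferase, and ZDHHC5-207 had shares of 3.87, 3.59 and 3.54% in control and 9.66, 12.2 and 10.7% at 240 µg/ml (log2 ratio 1.15 ± 0.25, adjusted p = 0.0226). Its values at 60 and 120 µg/ml were 4.06 to 9.05% and 4.21 to 7.57%, all above the controls. RPL4-214 and UBL5-205 lie in genes that fell and had shares under 1% in every library. Of the 11 minor spliceosome genes tested, SNRNP48 rose by 0.60 and SNRNP25 and ZMAT5 fell by 0.57 and 0.47 on the log2 scale at 240 µg/ml, with limma adjusted p of 0.000653, 0.0219 and 0.00145; with equal library totals both falls are lost (-0.15 and -0.07).

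Members in genes known for regulated introns did not pass the test at any dose. The 3 lists held 41 members in 12 SR protein genes, 11 in 5 CLK and DYRK kinase genes and 111 in 23 genes described for detained introns, and the smallest adjusted p among them at 240 µg/ml was 0.0519, for RBM39-222. The most abundant was SRSF3-206, which ends in the intron whose donor is printed above. Its shares were 48.4, 49.0 and 48.1% in control and 52.3, 48.0 and 62.2% at 60 µg/ml. They were 56.1, 57.1 and 58.0% at 120 and 60.9, 56.7 and 57.5% at 240 µg/ml, above every control library, with a log2 ratio of 0.57 ± 0.20 (adjusted p = 0.107). CLK1-210, a transcript of the kinase CLK1 that keeps 2 whole introns, had 22.1 ± 2.50% in control and 19.6 ± 4.07% at 240 µg/ml (adjusted p = 0.651). OGT-210, of the O-GlcNAc transferase, had 29 ± 0.80% and 33.7 ± 1.05% (adjusted p = 0.228).

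The median share of the 111 detained-intron members was 4.32% in control and 4.63% at 240 µg/ml, and the most abundant transcripts of the list had larger ones. ARGLU1-204 held 83.1 ± 1.66% in control and 79.6 ± 3.93% at 240 µg/ml, CCNL2-204 45.5 ± 1.88% and 42.4 ± 0.36%, and DDX5-215 19.2 ± 1.67% and 18.5 ± 1.78%. MAT2A-205, of the enzyme that makes S-adenosylmethionine, held 5.75 ± 0.32% and 6.82 ± 0.32% (adjusted p = 0.469), while MAT2A as a whole rose by 0.67 on the log2 scale. The share was above control at 240 µg/ml in 25 of the 41 SR members, 7 of the 11 kinase members and 63 of the 111 detained-intron members, against 66.0% of all members. Without an added value 1 of these members was called, CLK3-203, which went from 1.32 ± 0.57% to 3.59 ± 0.40% at 240 µg/ml (adjusted p = 0.0282). Its values were 0.6, 0.3 and 0.3 in control and 1.3, 1.5 and 1.2 at 240 µg/ml, near the floor of a table with 1 decimal. Outside that dose only 120 µg/ml replicate 1 reached the minimum value, at 1.0. CLK3-203 therefore met the minimum through the group where it is high, and the call supports nothing.

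**Figure D4:**
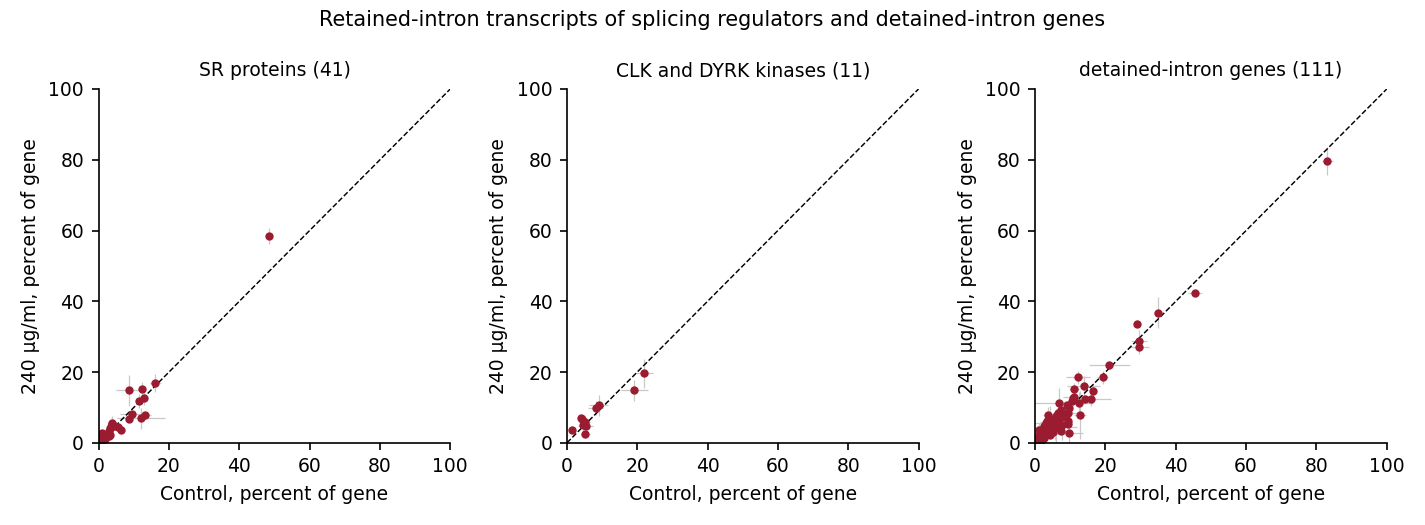
Mean share of its gene in control (x, percent) and at 240 µg/ml (y, percent) for members in 3 gene lists. Bars are SD (n = 3), the dashed line marks equal shares, and SRSF3-206 (48.5 and 58.4%) is the point farthest above it among SR proteins.

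The genes that make, check and export spliced RNA were counted from lists of 202 genes tested in all. At 240 µg/ml 78 rose and 16 fell in their summed level, at 120 µg/ml 70 and 17, and at 60 µg/ml 34 and 15. Over all 16787 genes tested, 19.7% rose and 23.5% fell at 240 µg/ml, 15.9% and 20.8% at 120 µg/ml, and 8.89% and 10% at 60 µg/ml. With equal library totals, which move the median of all genes at 240 µg/ml from -0.03 to 0.33, the counts at that dose were 156 and 4. How many of all genes were called with equal totals is not given here, so nothing about the lists is read from those counts.

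By role, 21 of 53 core spliceosome genes rose at 240 µg/ml and 5 fell. SF3A1 and DDX46, parts of the machinery that binds the branch site, rose by 0.84 and 0.82 on the log2 scale, while the Sm ring proteins SNRPD2 and SNRPG fell by 1.22 and 0.88. Of 25 hnRNPs 11 rose, led by SYNCRIP (0.81) and HNRNPU (0.73), and HNRNPA1 fell by 0.58; that fall is not called with equal library totals (-0.15) and turns to 0.17 under quantile normalization. Of 16 SR protein genes 5 rose, with SRRM2 (0.55) and SRSF11 (0.52) the largest, and none fell. SRPK1, a kinase that phosphorylates SR proteins, rose by 0.67, and DYRK1B fell by 0.70, a call lost with equal totals (-0.32, adjusted p = 0.0534).

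Decay and export genes followed the same count. Of 20 genes of the nuclear exosome, which degrades unspliced RNA, and its adaptors 10 rose and 3 fell, with EXOSC6 (1.02) and the helicase MTREX (0.79) highest. Of 18 nonsense-mediated decay factors 9 rose, among them DHX34 (0.90), SMG1 (0.77) and UPF2 (0.72), and none fell. Of 20 mRNA export genes 7 rose, led by THOC2 (0.83), and 3 fell, led by ENY2 (-0.85). SON and RBM25, detained-intron genes that encode splicing factors, rose by 0.76 and 0.61. Each of these changes had an adjusted p under 0.05 in limma.

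Retained-intron transcripts of these factors were called in few cases, all named after their values were seen. At 240 µg/ml 2 of 52 hnRNP members rose (3.85%) and none fell. Of 74 core spliceosome members 2 rose and 1 fell (2.70% and 1.35%), and of 35 export members 2 rose and 2 fell (5.71% each). Over all transcripts 3.5% rose and 2.28% fell, and nothing particular to these factors is read from the counts. HNRNPA1-211 rose from 1.21 ± 0.21% to 2.99 ± 0.64% and HNRNPC-210 from 0.22 ± 0.03% to 0.53 ± 0.11% at 240 µg/ml. ENY2-207 rose from 1.29 ± 0.22% to 3.71 ± 1.38% in a gene that fell. SNRPA-205, SNRPG-207 and SARNP-206 rose as well, from shares under 1%. SNRPA-205 reached a value of 1 in DHA libraries only, and SARNP-206 in 1 control library and those at 240 µg/ml. These 2 met the minimum through libraries where they are high, so their calls support nothing. THOC2-215 fell from 8.28 ± 2.30% to 3.76 ± 0.34% and DDX46-204 from 3.90 ± 1.17% to 1.56 ± 0.48%, both in genes that rose, and MCM3AP-210 fell from 4.89 ± 0.67% to 1.96 ± 0.23%. Adjusted p-values for these ranged from 0.014 to 0.0443. With nothing added, THOC2-215, DDX46-204 and SNRPG-207 were not called (limma adjusted p = 0.0532, 0.0611 and 0.0821), and SARNP-206 could not be tested. No base of HNRNPA1-211 lies outside coding exons, and its gene fell, so its share is set by reads that coding transcripts also explain. At 120 µg/ml NUP98-211 rose from 3.75 ± 1.47% to 10.4 ± 2.39% (adjusted p = 0.0468); it was at 8.08 ± 0.48% at 240 µg/ml (adjusted p = 0.105). DDX46-204 was called lower at 120 µg/ml too (adjusted p = 0.0412).

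The most abundant members belonged to highly expressed genes, and none of the 10 was called in share at 240 µg/ml. EEF1A1-206, of the elongation factor that brings aminoacyl-tRNA to the ribosome, had a mean value of 2512 and a share of 89.4 ± 5.17% in control and 84.1 ± 1.44% at 240 µg/ml. It is 792 bases long, with 10.5% of its bases outside coding exons, and its own level fell by 1.10 on the log2 scale (adjusted p = 0.000606). RPL13-213, RPL11-205, RPL4-205, RPL4-203 and RPL14-208 had control shares of 23.6 to 79.5%. SPARC-202, of a matrix glycoprotein, held 51.6 ± 0.86% in control and 45.5 ± 0.67% at 240 µg/ml (adjusted p = 0.166), while its own level fell by 2.77. Of the fibronectin gene, FN1-215 held 15.2 ± 2.02% and 18.3 ± 1.15%, and FN1-225 8.98 ± 0.81% and 12.4 ± 1.98%. Without these 10 the members' part of the library went from 3.20 ± 0.11% in control to 3.61 ± 0.25% at 60, 4.30 ± 0.17% at 120 and 4.58 ± 0.52% at 240 µg/ml, with every DHA library above every control (exact permutation p = 0.0182 for control against all DHA).

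The highest shares, among members with a mean of at least 5, were 100% for AC016026.1-201, the only matched transcript of its gene with signal, and near that for GPAT2P1-202, A1BG-204 and WASH2P-202. Beside EEF1A1-206 and ARGLU1-204, RAB21-202, TBL3-206, CARMIL2-211 and SERPINF1-208 held 76.6 to 84.1% in control. Of these 10 members the 7 that could be tested were called in share at no dose, and the 3 in genes without a coding transcript (AC016026.1, GPAT2P1, WASH2P) could not be tested.

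At the edge of the rule, the members with the least signal were TRPA1-204, RRM1-208 and PI4KAP2-207, with mean values of 0.27, 0.29 and 0.29. Just outside it were LAT-206, ACTR10-206 and CTDNEP1-204, which reached 1 in 2 libraries only and had means of 1.13, 1.06 and 0.90. Of the members, 3756 reached 1 in all 12 libraries and 29 in libraries of 1 group alone, 10 of them in control and 12 at 240 µg/ml. The number of members at 1 or more was 6451 ± 92 in control and 7237 ± 254 at 240 µg/ml. Members were admitted on any 3 of the 12 libraries, 9 of them with DHA, so the rule more readily takes in transcripts present under DHA. The same count over all rows is not given here, and nothing is read from this difference.

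The labelled cell type was checked by markers. All 6 epithelial markers reached 1 in at least 1 library, as did 3 of 10 proximal tubule markers (GGT1, PAX8 and SLC5A2), while LRP2, the defining endocytic receptor, was listed at 0 in all libraries. None of 4 endothelial and 5 distal tubule and collecting duct markers reached 1, and 1 of 5 immune markers did. Of 6 fibroblast markers 4 reached 1, and LUM went from a mean of 226 in control to 34.2 at 240 µg/ml while COL1A2 was listed at 0 everywhere; their part in the results was not tested.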

How the data were processed

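Values were taken from the table the authors deposited, which holds 1 normalised signal value per Ensembl transcript and library, to 1 decimal. Per the submitters' processing notes the build is GRCh38.p14; no source used here names the aligner, the quantifier, the strand setting or the release of the annotation (not given in the sources used here). Such values keep no read depth, so no counting interval is possible. Per the labels' protocols, poly(A) RNA was sequenced with a dUTP-marked second strand. Rows were matched by transcript ID without version to GENCODE release 29: 202305 of 267165 rows matched, holding 93.8 to 94.7% of each library, and 8956 of 9130 members had the same version. Intron features and sequences come from that release, with sequences printed only for matching versions. Values shared in full with another row occur for 211 members.

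The members and gene lists were chosen with earlier results of these data known. A member's share was tested with limma 3.58.1 (R 4.3.3) on log2((transcript + 1)/(rest of gene + 1)), 4 group means over 12 libraries, for 49154 transcripts where both terms reach 1 in 3 libraries; 62 members could not be tested. Levels were tested on log2(value + 1) over 61128 transcripts and 16787 genes, a scale that understates changes of low values. Adjusted p is Benjamini-Hochberg, and calls are at 0.05. The scripts were tested on simulated data. Named members are the 10 with the highest mean, the 10 with the highest share at a mean of at least 5, per dose the called members with the largest changes either way (6, and 10 at 240 µg/ml, a group mean of at least 3, 1 per gene), list members, and the 3 rows on either side of the minimum. Named list genes are up to 3 called per direction at 240 µg/ml. Python 3.11.15 was used for the rest. Ratios with nothing added, log2 of the percent share + 1, and counts and totals without ribosomal protein genes were alternatives chosen after seeing the data; the other alternatives are a different added value, filter, denominator, scaling, set of libraries and a replicate block.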

Additional observations from a re-analysis of the deposited data

How the results depend on the processing

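Counts of share calls depended on nearly every choice, with higher before lower in each pair. At 240 µg/ml they were 130 and 15 with 0.1 added, 2193 and 893 without the filter on low values, 95 and 29 on the percent share, 281 and 27 with nothing added, 89 and 18 on log2 of the percent share + 1, and 231 and 33 with only the 2 groups fitted; 39 fell with retained-intron transcripts summed per gene. At 120 µg/ml the same settings gave 8 and 2, 1477 and 511, 7 and 5, 88 and 4, 0 and 2, and 79 and 6; 12 fell with summed transcripts, 18 with a filter on the mean, and 140 rose without ribosomal protein genes. At 60 µg/ml they gave 1 higher with 0.1 added, 30 and 31 without the filter, and 1 and 2 on log2 of the percent share + 1; the 1 fall became 0 with a mean filter, nothing added, summed transcripts, 2 groups only or the replicate block. Leaving out 1 library gave 0 to 1 and 0 to 2 at 60, 10 to 140 and 2 to 11 at 120, and 146 to 456 and 24 to 49 at 240 µg/ml.

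Level calls of members at 60 µg/ml were 28 and 23 without the filter, 164 and 26 with equal totals, and 27 and 26 with 2 groups. At 120 µg/ml they were 387 higher without the filter, and 1677 and 87 with equal totals; at 240 µg/ml 620 higher without the filter, and 2428 and 140 with equal totals. Leaving out 1 library gave 20 to 59 and 13 to 45, 382 to 493 and 109 to 145, and 519 to 811 and 207 to 270 at the 3 doses. RNA-processing genes with equal totals numbered 64 and 6, 142 and 5, and 156 and 4, and 9 fell at 60 µg/ml without the filter; leaving out 1 library gave 16 to 33 and 6 to 13 at 60 µg/ml. Counts with equal totals, of members or genes, have no count over all transcripts or all genes beside them. With equal totals TIA1 changed to 0.039 and THOC6 to 0.10, and under quantile normalization HNRNPA1 to 0.17. The class share at 120 µg/ml differed by 1.10 points without the 10 most abundant members and by 1.02 points of nuclear coding signal. All DHA differed by 0.79 points of matched rows and by 0.69 points without ribosomal protein genes, both no longer called (exact permutation p = 0.0591 and 0.0773), and by 0.62 to 0.83 points with 1 library left out. The cause of these shifts was not tested.

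Replicate numbers paired the libraries weakly at most. Same-numbered deviations in the log2 ratio correlated at -0.01 to 0.11 (median 0.02), with 1 of 18 pairs above 0.1. Differently numbered ones correlated at -0.13 to 0.07 (median -0.02). For transcript levels the same-numbered pairs reached 0.14, with 2 of 18 above 0.1, and the others at most 0.07. With the replicate block 439 members rose and 69 fell in share at 240 µg/ml. Of 43 calls on named members, 27 were lost with 0.1 added, 28 on the percent share, 33 on its log2, 15 with 2 groups, 10 with the replicate block, and 28 with some 1 library left out, and none turned its sign. The 10 lost with the block were SPOCK1-210, PTRHD1-202, GOLGA8B-203 and ESYT1-206 at 240, DNMT1-207, YWHAE-205, SUPT4H1-206, SIGIRR-210 and RPL4-214 at 120, and COQ6-206 at 60 µg/ml. Depth is unknown, so no limit from counting can be given.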
